A study of Mus musculus with 8 samples.

Results

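Heat shock proteins and molecular chaperones were examined in common myeloid progenitors (CMPs) of young and old mice. The set was a list of 43 gene symbols: heat shock factors, chaperones and co-chaperones of the cytosol, the mitochondria and the endoplasmic reticulum (ER), and regulators of the unfolded protein response. Members were found by symbol among the 34797 gene names of the array, and 42 of the 43 were present and could be tested, out of 23177 gene names tested in all. The exception was Hspa1b, one of the stress-inducible HSP70 genes, for which no probe carried the symbol.

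CMPs are bone marrow progenitors that give rise to granulocyte-monocyte and megakaryocyte-erythrocyte progenitors. They were sorted by flow cytometry from untreated wildtype C57BL/6J mice kept pathogen-free, and the labels name no further allele or transgene. Young mice were 2 to 3 months old and old mice 22 to 24 months old by the sample labels, whereas the description of the whole series gives 3 to 4 and 22 to 26 months. Total RNA was labelled with Cy3 and hybridised to 8 one-colour Agilent arrays, young replicates 3 to 6 and old replicates 2 to 5. The methods of the study name fewer mice per age than there are arrays here, and nothing ties an array to a mouse, so that p-values measure the spread between these arrays only.

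Chaperones bind unfolded or partly folded proteins and help them to fold, assemble, cross membranes or be degraded. In the cytosol, heat shock factor 1 (HSF1) induces a subset of them, such as the inducible HSP70s and small heat shock proteins, when unfolded protein accumulates. Unfolded protein in the ER is sensed by IRE1, PERK and ATF6. Some, but not all, of the factors that act in these branches induce ER chaperones through the ER stress element of the chaperone promoters. Blood stem cells are known for tight control of protein synthesis and protein quality.

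Levels below are log2 of the background-corrected array signal minus the 75th percentile of the same array, so that a level of 0 is the signal of the 75th percentile spot. Where a gene had several tested probes, the brightest stands for it and the others are named where they differ. A level cannot be compared between genes, because probes differ in how strongly they bind. Member names were carried by 59 probes, of which 58 were tested, each well above background on all 8 arrays, and 1, the second probe of Dnajb11, was so on none. Values of single arrays are given in the order young replicates 3, 4, 5 and 6 and old replicates 2, 3, 4 and 5. An age difference is the old mean minus the young mean on this log2 scale.

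The 75th percentile signal ran from 289.7 to 565.4 units over the arrays, 55.69% to 63.21% of probes were well above background, and levels correlated between arrays with r of 0.967 to 0.9915, lowest on average for young replicate 3. Arrays lay on 2 slides with 2 arrays of each age on each, and slide and scan session coincided. Of the markers of the sort, Kit, Cd34, Fcgr3 and Flt3 were well above background on all 8 arrays, while Il7r was so on 1 young array only. Ly6a, which encodes the Sca-1 antigen that the CMP gate excludes, was also well above background on all 8 arrays, at a mean level of -0.12 in young and -0.85 in old CMPs. Megakaryocyte markers were higher in old CMPs for 13 of 14 genes (median difference 1.14, summed level on the linear scale 97.95 to 195.8 in young and 283.8 to 378.7 in old arrays), and all 7 granulocyte-monocyte progenitor genes were lower (median -0.59, summed level 639.8 to 790.2 in old and 915.3 to 1226 in young arrays). Of 12 immediate early genes, which cells induce within minutes of stress or handling, 10 were higher in old CMPs (median 0.40, summed level 34.07 to 37.45 in old and 23.9 to 50.16 in young arrays). Of 10 lymphoid genes, 3 (Cd3e, Cd79a and Cd79b) were well above background on all 8 arrays and 3 (Ebf1, Pax5 and Ms4a1) on none. Of 5 plasma cell genes, 2 (Sdc1 and Prdm1) were so on all arrays and 2 (Igj and Tnfrsf17) on none. Of 10 erythroid genes 8, and of 8 neutrophil genes 5, were well above background on all arrays. The part of these shifts in the chaperone values was not tested, and in bulk RNA more cells of a type cannot be told apart from more RNA per cell.

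No chaperone gene passed the test for an age difference in CMPs. The smallest change that passed for any tested probe was 2.106-fold, so that smaller differences could be missed. By limma over all 33495 tested probes, with the limits set at 0.05 for the adjusted p and 1.5-fold for the change, 0 of 42 members were called higher and 0 lower, against 0.207% and 0.0431% of all gene names tested (48 and 10 genes). At an unadjusted p under 0.05, with no limit on the fold and each gene by its brightest probe, 3 members were higher in old CMPs, namely Hspa1a, Hspb1 and Dnajb9, and 0 were lower, against 3.61% and 2.73% of all tested probes. A dimmer probe of Ern1 was lower at this limit. The 4 old arrays lay entirely above or below the 4 young arrays for 0 members, against 4.44% of all tested probes (2.86% higher and 1.58% lower). By the brightest probe, a difference of at least 1.5-fold was measured for 2 members, Hspa1a and Hspb1. The share was 8.94% of all tested probes and 6.46% of those well above background on all arrays, as every tested member probe was. Dimmer probes of Ern1 were 1.651-fold and 1.537-fold lower.

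Most differences were small and the larger number of them pointed up. The fitted difference was above 0 for 31 members and below 0 for 11, with a median of 0.10, where 46.74% of all tested probes were above 0 and their median was -0.02. On a shift to the array median in place of the 75th percentile, both medians moved up together, to 0.22 for the members and 0.10 for all tested probes. Without young replicate 3 the median of the members was 0.048, against -0.032 for all tested probes. Within slide 1 it was 0.11 against -0.07, and within slide 2 the medians were alike, at 0.046 for the members and 0.048 for all tested probes. By the brightest probe, the 95% interval of the difference lay within 1.5-fold in both directions for 19 members and within 2-fold for 37. This bounds the age difference that these probes measured, at the precision of 4 arrays against 4. Within slide 1 and within slide 2, the sign of the difference was the same for 18 of 42 members.

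**Figure D1:**
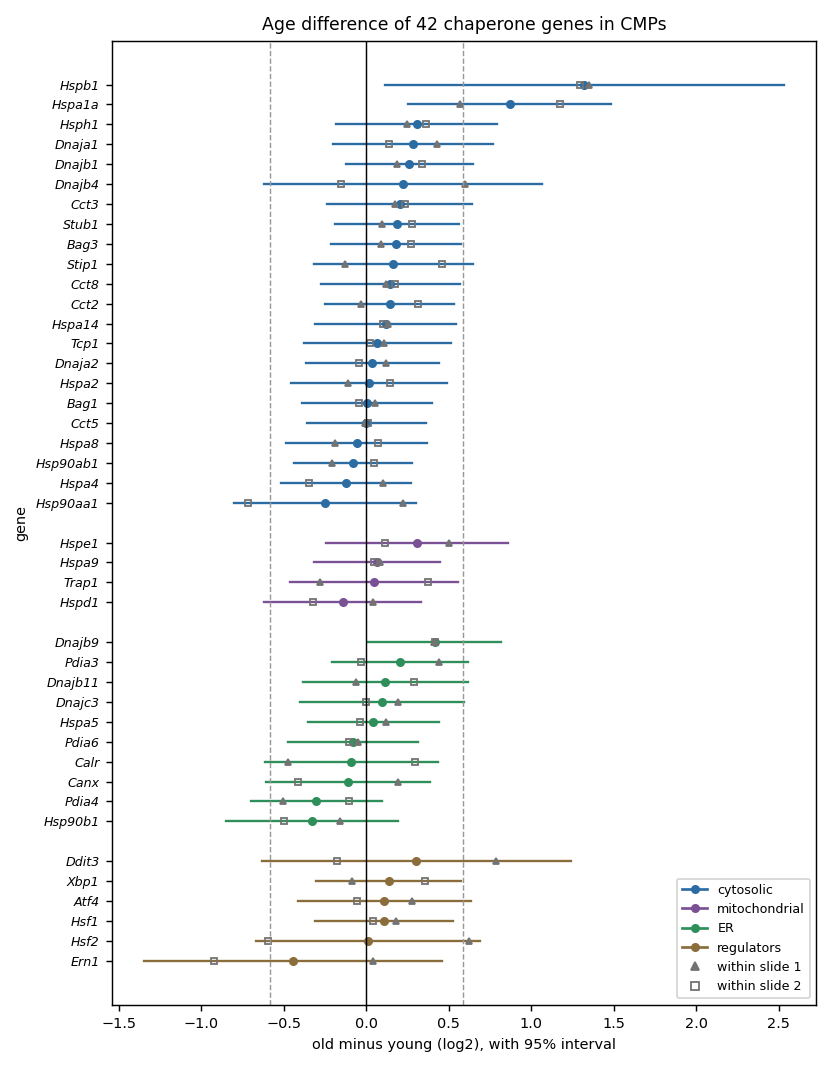
Old minus young difference (log2, horizontal axis) of the 42 chaperone genes measured, by compartment. Points with lines are the fitted difference with its 95% interval, triangles and open squares the difference within slide 1 and slide 2, and dashed lines a 1.5-fold change. Hspb1 (1.32) and Hspa1a (0.87) are the only points beyond the dashed lines, and the symbols of both slides stand on opposite sides of 0 for many other genes.

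The cytosolic chaperones comprised 22 measured genes, of which 18 had a fitted difference above 0 and 4 below, with a median of 0.14. Leaving out young replicate 3 lowered this median to 0.04. That array was the lowest young array for 13 of the 22 genes. The 7 measured members that HSF1 is known to induce on stress (Hspa1a, Hsph1, Hsp90aa1, Hspb1, Dnajb1, Dnajb4 and Bag3) had a median difference of 0.26, with 6 above 0 and Hsp90aa1 below. After each gene was centred on its own mean, the median of these 7 genes was -0.30, -0.10, -0.24 and -0.09 on the young arrays and 0.27, 0.20, -0.06 and 0.19 on the old arrays. All 4 old medians stood above all 4 young medians, narrowly so for old replicate 4 (-0.057) against young replicate 6 (-0.092). Each of the 7 genes taken alone overlapped between the ages. Without centring their medians overlapped too, reaching 3.175 in young arrays and starting at 3.05 in old arrays. Nor was the separation particular to this list. The centred medians of the cytosolic co-chaperones, which share Dnajb1, Dnajb4 and Bag3 with it, were at most -0.03 in young and at least 0.002 in old arrays.

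Hspb1, which encodes the small heat shock protein HSP27 (HSP25 in mice), an ATP-independent holdase that keeps unfolded proteins soluble, had the largest difference of all members. Its single probe lies at chr5:136365366-136365425 of build mm9, and its place within the transcript was not analysed here. Its level was 0.49, 2.69, 1.40 and 1.497 on the young arrays and 3.81, 3.55, 1.97 and 2.04 on the old arrays. Old replicates 2 and 3 were above every young array, whereas old replicates 4 and 5 lay below young replicate 4, so that the ages overlapped. The means were 1.52 ± 0.90 in young and 2.84 ± 0.98 in old CMPs (SD, n = 4 each), a difference of 1.32 (standard error 0.54) or 2.50-fold. It did not pass the test, with an adjusted p of 0.703 by limma, and without young replicate 3 it was 0.98. The difference was alike within the slides, at 1.35 on slide 1 and 1.296 on slide 2. In size it stood at the 99.3rd percentile of all tested probes.

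Hspa1a encodes the stress-inducible cytosolic HSP70, which most unstressed cells hold at a low level and which is the classical HSF1 target. The accession column of its single probe, at chr17:35107117-35107176 of mm9, names both the Hspa1a and the Hspa1b transcript, so that the signal cannot be assigned to one of the 2 genes. The level was 0.65, 0.35, 1.19 and 1.40 on the young arrays and 2.07, 1.84, 1.28 and 1.88 on the old arrays. Old replicates 2, 3 and 5 were above every young array, and old replicate 4 was below young replicate 6. Means were 0.90 ± 0.48 and 1.77 ± 0.34 (SD, n = 4 each), a difference of 0.87 (standard error 0.28) or 1.83-fold, with an adjusted p of 0.431 by limma. Within slide 1 the difference was 0.57 and within slide 2 it was 1.17. Over the fits that each left out 1 array it ranged from 0.69 to 1.04.

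Heat shock elements are runs of the unit GAA and its reverse TTC with 2 bases between units, and are where HSF1 binds. They were searched on both strands in RefSeq promoter windows of build GRCm38.p6, 250 bases before to 50 after each start, which covered 38 of the 43 members (not Hsf1, Hspa8, Hsp90aa1, Hsp90ab1 and Hspa9). The element of 2 units, GAANNTTC or TTCNNGAA, was found in 12 of the 38 members (31.6%) and in 17% of all 27025 genes with a promoter. Among the stress-inducible members with a promoter window, here with Hspa1b and without Hsp90aa1, it was found in 6 of 7 (Hspa1a, Hspa1b, Hspb1, Hsph1, Dnajb4 and Bag3). The match of Bag3 lay 42 bases after the start. Among all cytosolic chaperones the element was found in 10 of 20, and among ER chaperones in 0 of 10. The run of 3 units was found in 3 members (7.89%), Hspd1, Hspe1 and Hsph1, and in 0.662% of all genes. The windows of Hspa1a and Hspb1, the members with the largest differences, are shown with the elements in capitals, from 5′ to 3′ on the strand of the gene. That of Hspa1a is on the minus strand at chr17:34972233-34972280 and ends 77 bases before the start, and that of Hspb1 is on the plus strand at chr5:135887782-135887849 and ends 70 bases before it.
Hspa1a: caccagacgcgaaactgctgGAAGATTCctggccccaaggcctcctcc
Hspb1: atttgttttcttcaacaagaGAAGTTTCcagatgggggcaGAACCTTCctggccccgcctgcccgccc
The promoter windows of Hspa1a and Hspa1b were identical at 296 of 300 positions and held the element at the same place, 104 bases before the start. A match of letters is a description of the sequence and does not show that a factor binds there.

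**Figure D2:**
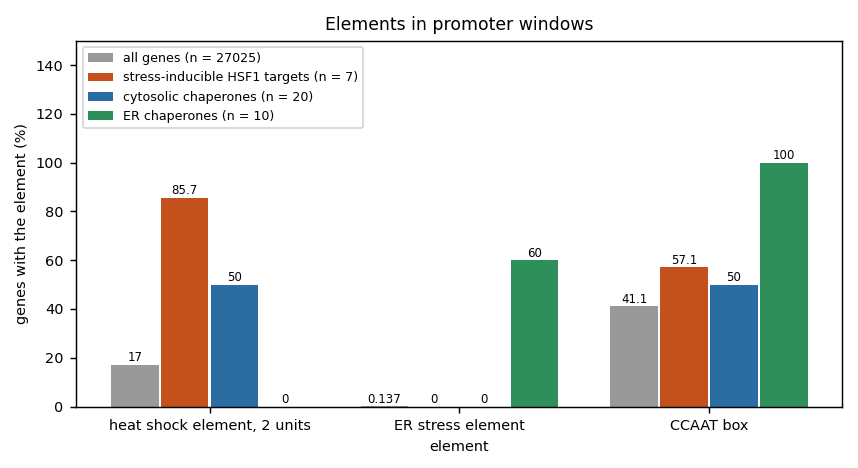
Share of genes (%, vertical axis) whose promoter window held the heat shock element of 2 units, the ER stress element or the CCAAT box, for all genes and for 3 groups of members. The heat shock element was in 85.7% of stress-inducible members with a promoter window, and the ER stress element in 60% of ER chaperones against 0.137% of all genes.

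Hsph1 encodes HSP110, the nucleotide exchange factor that resets HSP70 and helps it to dissolve aggregates. Its level was 3.93, 4.5, 4.37 and 4.33 on the young arrays and 4.96, 4.72, 4.20 and 4.48 on the old arrays. Old replicates 2 and 3 were the highest of all arrays, and the others were interleaved with the young. The difference was 0.31 (standard error 0.22, 95% interval -0.18 to 0.79, adjusted p = 0.998 by limma). Without old replicate 2 it was 0.18. Its second probe gave 0.32.

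Hspa8 encodes the constitutive HSP70 (HSC70), which folds nascent proteins and strips clathrin from vesicles. The level was 8.72, 8.37, 8.82 and 8.43 on the young arrays and 8.51, 8.64, 8.73 and 8.23 on the old arrays. The arrays of both ages were fully interleaved. The difference was -0.06 (95% interval -0.49 to 0.37), while the other 2 probes gave 0.29 and 0.12, so that the sign differed between probes.

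By the brightest probe, the remaining cytosolic members were within 1.22-fold of the young level. Among the HSP70 and HSP110 genes, Hspa2, Hspa4 and Hspa14 had differences of 0.02, -0.12 and 0.12. The dimmer probes of Hspa4 gave 0.08 and -0.55, the last with a 95% interval of -2.43 to 1.33, so that its 3 probes differed in sign. The HSP90 isoforms, which mature kinases and steroid receptors, were both below 0, at -0.25 for the inducible Hsp90aa1 and -0.08 for the constitutive Hsp90ab1. Hsp90aa1 was 0.22 on slide 1 and -0.72 on slide 2. All 8 cytosolic co-chaperones had a fitted difference above 0, from 0.01 (Bag1) to 0.28 (Dnaja1), with a median of 0.18. Those of Bag1 and Dnajb4 fell below 0 without old replicate 4, and that of Dnaja2 without young replicate 5. The co-chaperones comprise J-domain proteins that load substrates onto HSP70 (Dnaja1, Dnaja2, Dnajb1, Dnajb4), nucleotide exchange factors (Bag1, Bag3), the HSP70-HSP90 adaptor Stip1 and the ubiquitin ligase Stub1. Dnajb1, the J-domain partner of inducible HSP70, was 0.26 higher in old CMPs (95% interval -0.12 to 0.65), with 0.19 on slide 1 and 0.34 on slide 2.

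The CCT chaperonin is a ring of different subunits that folds actin, tubulin and other cytosolic proteins. Its 5 measured subunits (Cct2, Cct3, Cct5, Cct8 and Tcp1) had differences between 0.00 (Cct5) and 0.20 (Cct3), with a median of 0.14. Young replicate 3 was the lowest young array for 5 of 5 subunits, and its median centred level was -0.38, where the other 7 arrays lay between -0.09 and 0.13.

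**Figure D3:**
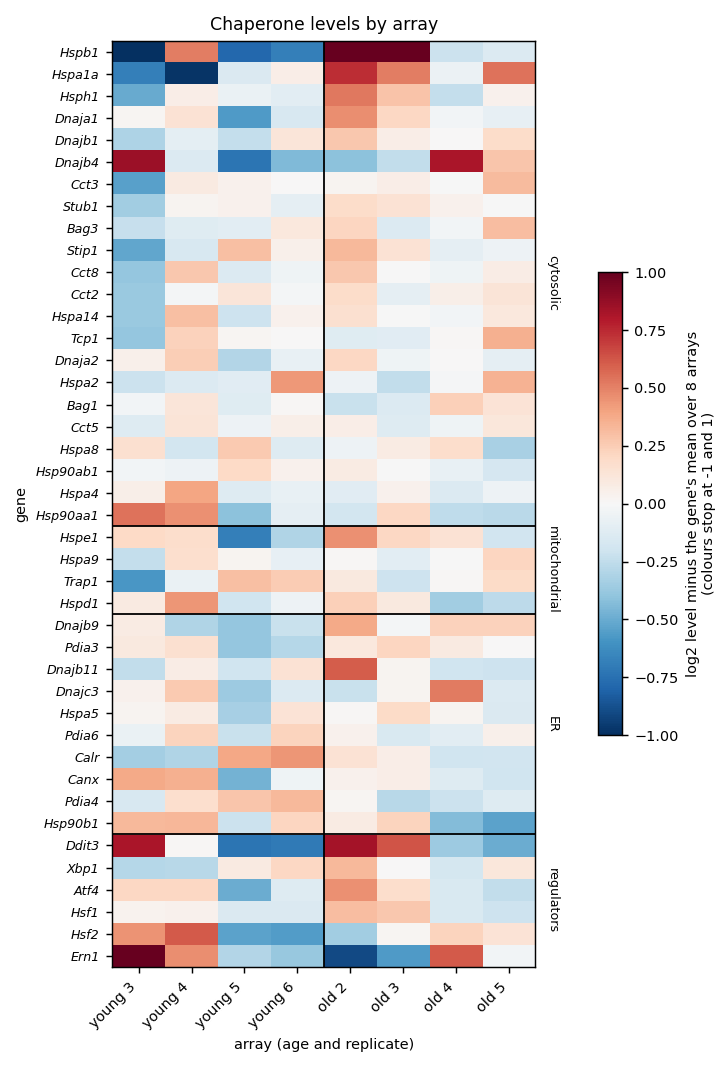
Levels of the 42 genes (rows) on the 8 arrays (columns), each gene centred on its own mean, in log2 units from blue (below) to red (above). Rows are grouped by compartment and ordered by the age difference, and colours stop at -1 and 1. At the top Hspb1 is red mainly in old replicates 2 and 3 and Hspa1a in old replicates 2, 3 and 5, the chaperonin subunits are blue in young replicate 3, and several regulators differ more within an age than between ages.

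Variation within an age was shared by many members. Among the old arrays, replicates 2 and 3 were the 2 highest for 17 of 42 members (40.5%, against 25.0% of all tested probes). Old replicates 2 and 5 were so for 13 members (31.0%, against 14.6%), and old replicate 2 was the highest for 22. Among the young arrays, replicates 3 and 4, which were those on slide 2, were the 2 highest for 16 members (38.1%, against 21.4% of all tested probes). Young replicate 3 was the lowest young array for 19 members and young replicate 5 for 18.

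The mitochondrial chaperones showed no age difference that passed the test, and 3 of 4 had a fitted difference above 0 (median 0.05, and -0.07 without young replicate 3). Hspe1 and Hspd1 encode HSP10 and HSP60, the lid and the barrel of the mitochondrial chaperonin. Hspe1 had levels of 6.402, 6.38, 5.52 and 5.91 on the young arrays and 6.66, 6.41, 6.35 and 6.01 on the old arrays. Old replicates 2 and 3 were the highest arrays, young replicates 5 and 6 the lowest, and the ages overlapped. The difference was 0.31 (standard error 0.25, 95% interval -0.24 to 0.86), with 0.50 on slide 1 and 0.11 on slide 2, and the other 2 probes gave 0.16 and 0.24. It ranged from 0.13 without young replicate 5 to 0.42 without young replicate 3.

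Hspd1 had levels of 6.31, 6.66, 6.02 and 6.17 on the young arrays and 6.45, 6.31, 5.87 and 5.95 on the old arrays. Young replicate 4 was the highest array and old replicate 4 the lowest, with the others interleaved. Its difference was -0.14 (95% interval -0.62 to 0.33, and -0.02 without young replicate 4), so the partners of the chaperonin had fitted differences of opposite sign. The difference between them was not tested.

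These partner genes lie on opposite strands of chromosome 1. Of the 2 starts of Hspd1 in the promoter table, 1 lies 216 bases before the start of Hspe1, so that the genes diverge from it, and the other lies 95 bases after the start of Hspe1, so that its transcripts overlap those of Hspe1. A heat shock element of 4 units lies between the divergent starts, in the window of Hspe1 and in that of the first Hspd1 start but not of the other. It is shown in capitals on the strand of Hspe1, in a stretch at chr1:55088053-55088082 (GRCm38.p6) that ends 66 bases before the start of Hspe1.
Hspe1: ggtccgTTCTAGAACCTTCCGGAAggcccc
Hspa9 encodes mortalin, the mitochondrial HSP70 that pulls proteins through the inner membrane. Its level was 4.60, 5.002, 4.87 and 4.76 on the young arrays and 4.85, 4.73, 4.84 and 5.06 on the old arrays. The arrays of both ages were interleaved, and the difference was 0.06 (95% interval -0.32 to 0.45). Trap1, the mitochondrial HSP90, gave 0.05, with -0.28 on slide 1 and 0.37 on slide 2.

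The ER chaperones were divided evenly, with 5 of 10 genes above 0 and 5 below and a median of -0.02. That median turned to 0.10 on the shift to the array median, where all tested probes also moved to 0.10. It was 0.02 on the normalised values of the authors and 0.03 without young replicate 3. With quantile normalization and without old replicate 2 it was -0.09. The HSP70, HSP90 and J-domain members had 4 genes above 0 and 1 below, and the lectin chaperones and disulfide isomerases 1 above and 4 below.

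Dnajb9 (ERdj4), a J-domain co-chaperone of BiP that holds the sensor IRE1 inactive, had the largest difference of this compartment. The level was 0.77, 0.38, 0.30 and 0.46 on the young arrays and 1.07, 0.67, 0.92 and 0.92 on the old arrays. Every old array was above young replicates 4, 5 and 6, and old replicate 3 was below young replicate 3, the single overlap. Means were 0.48 ± 0.20 and 0.89 ± 0.17 (SD, n = 4 each), a difference of 0.41 (standard error 0.18, 1.33-fold, adjusted p = 0.767 by limma). On slide 1 the difference was 0.41 and on slide 2 it was 0.42. With the shift to the array median, Dnajb9 was the 1 member whose ages did not overlap. A dimmer second probe gave 0.20, with levels from -3.49 to -1.54 in young and from -3.14 to -1.14 in old arrays.

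Hsp90b1 encodes GRP94, the HSP90 of the ER, which folds integrins and Toll-like receptors. Its level was 5.21, 5.21, 4.67 and 5.10 on the young arrays and 4.97, 5.10, 4.45 and 4.34 on the old arrays. Old replicates 4 and 5 were below every young array, while old replicates 2 and 3 lay within the young range. The difference was -0.33 (standard error 0.23, 95% interval -0.85 to 0.19, adjusted p = 0.998 by limma), with -0.16 on slide 1 and -0.50 on slide 2. Without old replicate 5 it was -0.21.

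Pdia4 encodes ERp72, a protein disulfide isomerase. The level was 1.61, 1.94, 2.05 and 2.09 on the young arrays and 1.78, 1.49, 1.55 and 1.64 on the old arrays. Young replicates 4 to 6 were above every old array, and young replicate 3 was among the old. The difference was -0.30 (standard error 0.18, 95% interval -0.70 to 0.09, adjusted p = 0.959 by limma), and it stayed negative on both slides, at -0.50 and -0.10.

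Hspa5 encodes BiP, the ER HSP70 and the usual readout of the unfolded protein response. Its level was 6.56, 6.63, 6.21 and 6.68 on the young arrays and 6.55, 6.73, 6.57 and 6.397 on the old arrays. Apart from the low young replicate 5 the arrays of both ages lay close together. The difference was 0.04 with a 95% interval of -0.36 to 0.44, which lies within 1.5-fold in both directions.

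The other ER members had differences from -0.11 (Canx) to 0.21 (Pdia3). For the calnexin cycle, in which Canx and Calr hold glycoproteins and Pdia3 forms their disulfide bonds, the difference of Calr was -0.48 on slide 1 and 0.29 on slide 2, that of Canx 0.19 and -0.42, and that of Pdia3 0.44 and -0.03. Dnajb11 and Dnajc3, J-domain partners of BiP, had differences of 0.12 and 0.10, and Pdia6, a disulfide isomerase bound to BiP, had -0.08, with its second probe at 0.17.

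The ER stress element, CCAAT followed by 9 bases and CCACG, was found on either strand in the promoter windows of 6 of the 10 ER chaperones (60%) and in 0.137% of all genes. The CCAAT box alone was in 10 of these 10 and in 41.1% of all genes. The 6 genes are shown because their windows held the element, and their age differences ran from -0.33 to 0.10. The ER chaperones without a match ran from -0.30 (Pdia4) to 0.41 (Dnajb9). A relation of the element to the age differences was not tested. Capitals mark the element, read on the strand of the gene in GRCm38.p6. The windows are Hspa5 at chr2:34772005-34772063 (plus), Hsp90b1 at chr10:86705513-86705676 (minus), Calr at chr8:84847055-84847113 (minus), Canx at chr11:50325780-50325838 (minus), Dnajc3 at chr14:118937807-118937865 (plus) and Pdia6 at chr12:17266471-17266529 (plus).
Hspa5: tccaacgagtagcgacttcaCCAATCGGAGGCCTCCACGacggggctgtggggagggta
Hsp90b1: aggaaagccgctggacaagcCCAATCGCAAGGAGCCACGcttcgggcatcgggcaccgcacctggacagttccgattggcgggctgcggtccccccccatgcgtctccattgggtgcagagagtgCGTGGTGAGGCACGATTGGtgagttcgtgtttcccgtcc
Calr: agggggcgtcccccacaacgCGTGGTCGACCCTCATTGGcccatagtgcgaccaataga
Canx: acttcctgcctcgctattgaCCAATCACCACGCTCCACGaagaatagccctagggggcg
Dnajc3: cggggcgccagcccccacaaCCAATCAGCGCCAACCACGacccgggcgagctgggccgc
Pdia6: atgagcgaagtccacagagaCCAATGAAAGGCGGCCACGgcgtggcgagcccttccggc
Hsp90b1 held the element once on each strand, and Calr held it in reverse only. The ATF4-type element, TGATGNAA or its reverse, was found in 1 of the 38 members (2.63%), Hspa14, and in 4.51% of all genes.

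Of the 6 regulators, 5 had a fitted difference above 0 (median 0.11) and none passed the test by limma. Ern1 encodes IRE1, the ER sensor that splices Xbp1 mRNA. Its level was 2.44, 1.81, 1.06 and 0.97 on the young arrays and 0.45, 0.79, 1.96 and 1.32 on the old arrays. The spread within each age exceeded the distance between them, with young replicate 3 the highest and old replicate 2 the lowest array. The difference was -0.44 (standard error 0.40, 95% interval -1.35 to 0.46, adjusted p = 0.998 by limma), with 0.04 on slide 1 and -0.93 on slide 2. It ranged from -0.72 without old replicate 4 to -0.15 without young replicate 3. The other 3 probes of Ern1 gave -0.23, -0.62 and -0.72, the last with an unadjusted p of 0.0443 by limma and an adjusted p of 0.762.

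Ddit3 encodes CHOP, the factor that links lasting ER stress to cell death. The level was 0.94, 0.13, -0.61 and -0.58 on the young arrays and 0.96, 0.75, -0.24 and -0.37 on the old arrays. Each age held 2 higher and 2 lower arrays, and the ages overlapped almost fully. The difference was 0.30 (standard error 0.42, 95% interval -0.63 to 1.24), with 0.79 on slide 1 and -0.18 on slide 2. It ranged from 0.08 without old replicate 2 to 0.63 without young replicate 3.

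Xbp1, whose spliced mRNA encodes an activator of ER genes, had levels of 5.73, 5.73, 6.10 and 6.22 on the young arrays and 6.34, 6.02, 5.84 and 6.12 on the old arrays. The arrays were interleaved, with old replicate 2 the highest, and the difference was 0.14 (95% interval -0.30 to 0.57, and 0.05 without old replicate 2). Spliced and unspliced Xbp1 mRNA were not measured separately. Atf4, which PERK signalling acts through, gave 0.11, and the heat shock factors Hsf1 and Hsf2 gave 0.11 and 0.01. Hsf2 was 0.62 on slide 1 and -0.60 on slide 2.

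**Figure D4:**
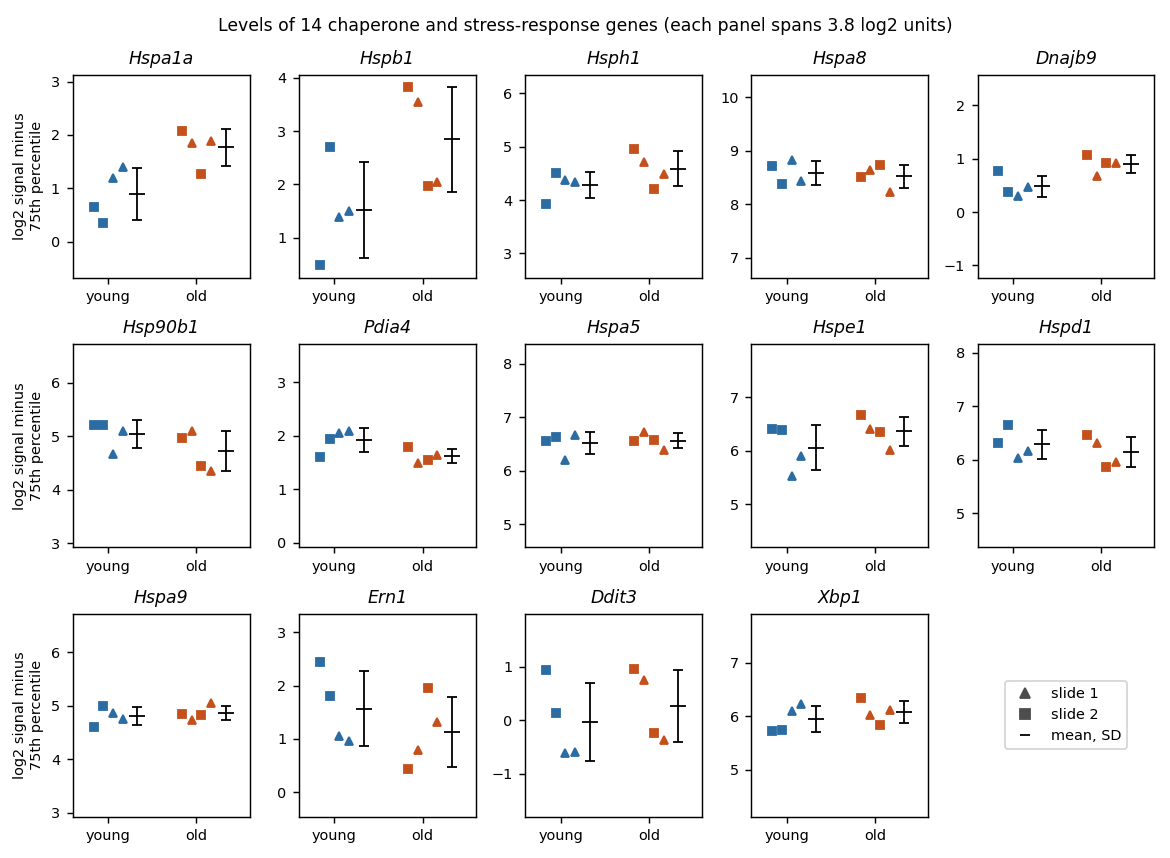
Levels (log2 signal minus the 75th percentile of the array, vertical axis) of 14 genes on each young (blue) and old (orange) array, with triangles for slide 1, squares for slide 2 and bars for the mean and SD of 4 arrays. Every panel spans the same number of log2 units. Old arrays tend to stand above young ones for Hspa1a, Hspb1 and Dnajb9, with overlap in each, and Hspa8, Hspa5 and Hspa9 are level.

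Other genes of the same pathways gave no called gene by limma either. Among 51 further cytosolic chaperones and co-chaperones, 48 were tested (Hspa12a, Hspb3 and Hspb7 were too dim), of which 32 had a fitted difference above 0 and 16 below (median 0.08). The largest was that of Hspb8, a small heat shock protein that works with Bag3 in selective autophagy. Its level was -4.33, -4.52, -3.46 and -2.41 on the young arrays and -1.86, -1.97, -2.05 and -1.53 on the old arrays. All 4 old arrays were above all 4 young arrays, a difference of 1.83 (3.55-fold, standard error 0.42, adjusted p = 0.168 by limma). The ages did not overlap for 2 of these 48 genes, against 4.44% of all tested probes. The young levels of Hspb8 were low, which makes the size of its fold uncertain. At a young mean of -4.53 another gene, Fgd5, was well above background on only 3 of the 4 young arrays. Among the fits that each left out 1 array, Hspb8 passed the test only without young replicate 6, the young array nearest the old ones. Leaving out that array necessarily widened the difference, to 2.25, with an adjusted p of 0.0318 by limma. Hsf4, a heat shock factor of the lens, had a difference of -0.79 that rested on young replicate 4, at -1.87 where the other arrays lay between -4.91 and -3.85.

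Of 36 further ER genes, 22 were above 0 and 14 below (median 0.03), and the largest were Derl3 and Trib3, at 0.50 and 0.49. The ages did not overlap for 1 of these 36 genes. Trib3, an ATF4 target, was 2.42, 2.69, 2.39 and 2.57 on the young arrays and 3.16, 3.097, 2.63 and 3.13 on the old arrays (adjusted p = 0.626 by limma). Old replicate 4 alone fell among the young arrays. Of 13 further mitochondrial chaperones and proteases, 6 were above 0 and 7 below (median -0.02), and the largest were Dnajc19, at 0.29, and Yme1l1, at -0.27. All 13 overlapped between the ages.

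Centred list medians per array were set beside those of other cell types and of handling. Immediate early genes had medians of 0.31, -0.39, -0.36 and -0.31 on the young arrays and 0.43, 0.23, -0.16 and 0.12 on the old arrays. Young replicate 3 was high for these genes and was the lowest array for the stress-inducible chaperones. Old replicate 4 was the lowest old array for both lists. Their part in the values of Hspa1a and Hspb1 was not tested.

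**Figure D5:**
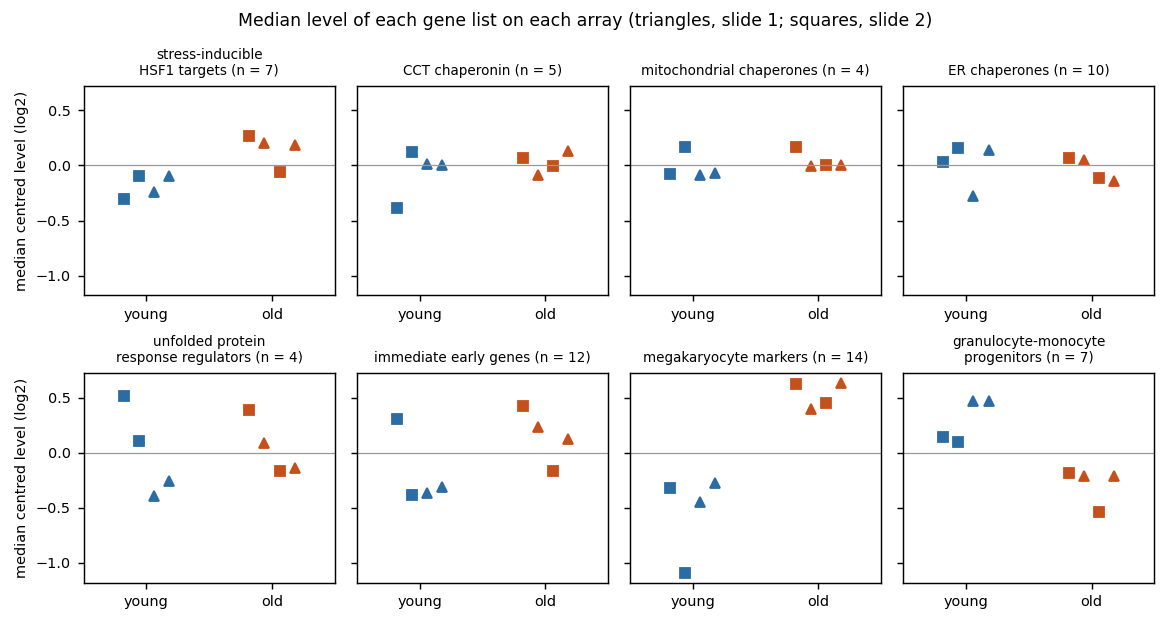
Median level of 8 gene lists on each array after each gene was centred on its mean (log2, vertical axis), with young arrays in blue, old arrays in orange, triangles for slide 1 and squares for slide 2. The stress-inducible chaperones run from -0.30 to -0.09 in young and from -0.06 to 0.27 in old arrays, while the ER, chaperonin and mitochondrial lists overlap and the megakaryocyte list differs most. The granulocyte-monocyte list does not overlap either, nor do the cytosolic co-chaperones, which are not drawn.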

How the data were processed

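Members and gene lists were chosen with earlier results of these data known. The authors deposited 1 scanner file per array, extracted with Agilent Feature Extraction 10.7.3.1 per the labels, whose background-corrected and processed intensity was used, and a table of log2 values shifted to the 75th percentile and centred per probe. Control and outlier spots were removed, spots of a probe averaged as log2 values, and each array's 75th percentile subtracted. Probes well above background on at least 4 of 8 arrays were tested (33495) with limma 3.58.1 in R 4.3.3 (lmFit, eBayes, Benjamini-Hochberg over all of them). A gene was called at an adjusted p under 0.05 and at least 1.5-fold, by any probe. The script was tested on simulated data, where it called 21.54% of changes of 1 log2 unit and 85.71% of changes of 2.

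Named with every array were the called or non-overlapping members, the 3 with the largest absolute difference per compartment and among regulators, and Hspa1a, Hspa1b, Hspa5 and Hspa8. Of each related list, called genes and the 2 largest were named. Counts of the 2 highest arrays per age and the values per array of Hspb8 and Trib3 were added after the data were seen. Probe positions in the files are on mm9 and were not joined with the GRCm38.p6 promoters. Alternatives covered background correction, scaling, filters, test, slide, replicate number and leaving out each array. The number of arrays limits the precision.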

Additional observations from a re-analysis of the deposited data

Results flagged for a closer look

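Of 84 sets of 4 arrays (42 members in 2 ages), 3 held an array far from the other 3 by Dixon's criterion, and chance marks about 1 in 20 such sets. Cct3 was 4.17 in young replicate 3, where the other young arrays lay between 4.72 and 4.801. Hsp90aa1 was 5.79 in old replicate 3, where the other old arrays lay between 5.32 and 5.40. Hspa2 was 1.18 in young replicate 6, where the other young arrays lay between 0.53 and 0.63.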

How the results depend on the processing

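No member was called under any of the fits with adjusted p-values, and the lowest adjusted p by limma was 0.110 for Hspb1 (difference 0.98 to 1.71 over the settings) and 0.172 for Hspa1a (0.57 to 1.17), both with array weights. At an unadjusted p, with the 1.5-fold limit kept and any probe counted, the members were 2 higher (Hspa1a and Hspb1) and 1 lower (Ern1, by a dimmer probe) with limma, with 2 related genes (Hspb8 and, by a dimmer probe, Dnajb5), and 1 higher (Hspa1a) with 1 related gene (Hspb8) with the methods' t-test. Genes called higher and lower in all were 75 and 21 with normexp, 53 and 3 with quantile normalization, 58 and 5 with the shift to the median, 55 and 6 on the series table, 24 and 2 with no filter, 190 and 89 with array weights, 0 and 0 with the methods' t-test adjusted, 587 and 360 with it unadjusted and 777 and 632 with limma unadjusted. Genes called lower were 6 with probes above background on all arrays, 17 with all arrays of an age and 4 with slide as a block, and genes called higher 77 with trend and robust variances. The shift to the median gave medians of 0.22 for members and 0.17 for mitochondrial chaperones, with 1 member not overlapping (Dnajb9). Leaving out 1 array at a time gave 22 to 37 genes higher, 2 to 6 lower, 0 to 1 related genes called, and mitochondrial medians of -0.071 to 0.12. The difference changed sign in some of these fits for Atf4, Bag1, Calr, Cct5, Dnaja2, Dnajb11, Dnajb4 and Dnajc3. It also did so for Hsf2, Hspa2, Hspa5, Hspa8, Hspa9, Tcp1 and Trap1. Same-numbered arrays correlated at -0.09, -0.14 and 0.15 in their deviations, so that the numbers were not taken to pair samples, and the replicate block gave 12 genes higher, 1 lower and 0 members. The causes of these moves were not tested.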
